A study of Homo sapiens with 6 samples.

Results

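Of 8 chemokine genes known for attracting lymphocytes and monocytes (CCL20, CXCL10, CXCL11, CXCL16, CX3CL1, CCL2, CCL15 and CCL28), 7 had at least 1 probe set annotated to that gene alone, out of 19775 genes with such a probe set. They were chosen by name, with earlier results of these data known, and all 11 of their probe sets were followed. CCL15 had no probe set of its own, because the only probe set for it is also assigned to CCL15-CCL14, a readthrough transcript that joins CCL15 to its neighbour CCL14.

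The cells were Caco-2, a human colorectal adenocarcinoma line whose monolayers resemble absorptive enterocytes. They had grown for 14 days on a porous membrane, which was then set above THP-1 cells, a human monocytic leukaemia line treated for 4 days with phorbol myristate acetate (PMA), an agent that turns it into macrophage-like cells. Caco-2 RNA was profiled on Affymetrix arrays before coculture (0 h) and after 1, 3, 6, 24 and 48 h, with 1 array at each time, so no value has a replicate and no test was possible. Each coculture sample thus shares the PMA-treated THP-1 partner, and no array of Caco-2 cells kept alone for the same hours was analysed here.

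Chemokines are small secreted proteins that draw leukocytes along a gradient by binding receptors coupled to G proteins on those cells. Gut epithelium makes several: CCL20 recruits cells that carry CCR6, among them Th17 cells and immature dendritic cells, CXCL10 and CXCL11 recruit activated T cells through CXCR3, and CCL28 recruits antibody-secreting cells through CCR10. CXCL16 and CX3CL1 are made as membrane-anchored proteins that proteases such as ADAM10 and ADAM17 can release. CCL2 recruits monocytes through CCR2, and CCL15 acts on CCR1 and CCR3.

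Promoter sequences are shown for CCL20 and CXCL10, which rose together, and for CXCL11, which lies beside CXCL10 and crossed the detection floor at the times when CXCL10 was highest. Each sequence is the 250 bases before the start of the gene, from RefSeq on build GRCh38.p14, written 5′ to 3′ on the strand of the gene. Capitals mark matches to the kappaB consensus of NF-kB, to the core of the interferon-stimulated response element (ISRE; GAAA, any 2 bases, GAAA), to TGACTCA of AP-1, each searched on both strands, and to TATAAA, searched on the strand of the gene. Positions below are counted backwards from the start of the gene.
CCL20 (chr2:227813592-227813841, plus strand): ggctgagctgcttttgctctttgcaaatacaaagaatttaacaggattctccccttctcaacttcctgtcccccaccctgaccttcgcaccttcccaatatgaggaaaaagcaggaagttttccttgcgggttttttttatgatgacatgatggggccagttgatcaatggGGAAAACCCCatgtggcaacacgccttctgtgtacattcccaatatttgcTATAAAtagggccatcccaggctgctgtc
CXCL10 (chr4:76023498-76023747, minus strand): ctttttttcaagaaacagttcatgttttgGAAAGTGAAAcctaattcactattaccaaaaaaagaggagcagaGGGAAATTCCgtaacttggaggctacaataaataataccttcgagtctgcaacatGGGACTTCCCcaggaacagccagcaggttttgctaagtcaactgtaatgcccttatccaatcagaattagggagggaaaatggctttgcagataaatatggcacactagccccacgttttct
CXCL11 (chr4:76036071-76036320, minus strand): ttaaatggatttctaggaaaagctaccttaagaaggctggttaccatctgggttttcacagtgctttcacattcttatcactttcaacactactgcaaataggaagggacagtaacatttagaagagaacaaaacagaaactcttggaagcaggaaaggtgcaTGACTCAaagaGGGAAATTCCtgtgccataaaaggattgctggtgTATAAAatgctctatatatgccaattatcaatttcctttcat
All 3 promoters held a kappaB match, which 9.96% of the 35116 promoters in the table hold. The match in CCL20 lay 79 to 70 bases before the start and read on the opposite strand. CXCL10 had 2 positions, at 177 to 168 and at 122 to 113 bases, the latter matching on both strands. CXCL11 had its match at 76 to 67 bases. The kappaB matches GGGAAATTCC of CXCL10 and CXCL11 were identical. This exact run of letters was read from their promoters and then counted over all, where 52 promoters, or 0.148%, held it. The ISRE pattern occurred in CXCL10 alone of the 3, at 221 to 212 bases, against 3.02% of all promoters. TATAAA was present in CCL20 at 29 to 24 bases and in CXCL11 at 42 to 37 bases, against 6.80% of all promoters. TGACTCA stood in CXCL11 at 87 to 81 bases, against 4.20%. No marked motif overlapped another. Promoters were listed for 5 of the 8 genes. The 2 promoters of CCL28 held none of these patterns, and that of CCL15 held TATAAA. These are matches of letters only, and binding was not measured.

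CCL20 and CXCL10 rose within 1 h, stayed high through 24 h and were still above 0 h at 48 h, while none of the other measured genes of the group changed by 2-fold. Here a gene is called higher or lower when its array differs at least 2-fold from the 0 h array and the brighter signal exceeds a floor of 16.2, the 50th percentile of all signals. Where the dimmer signal is under the floor, the floor replaces it and the fold is a lower bound. Of the 7 genes, 6 had a signal above the floor on at least 1 array, and CCL2 on none. At each of 1, 3, 6, 24 and 48 h, 2 of the 6 were higher. Among all 14760 measured genes, 1.90%, 3.10%, 4.21%, 3.92% and 3.82% were higher at these times. None of the 6 was lower, against 1.46%, 3.52%, 6.44%, 6.12% and 6.11% of measured genes. The median log2 ratio of the 6 genes was 0.18, 0.59, 0.47, 0.42 and 0.19 in time order, where that of all measured genes lay between -0.04 and 0.00. The comparisons share the 0 h array, so a high or low value there enters all of them.

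**Figure D1:**
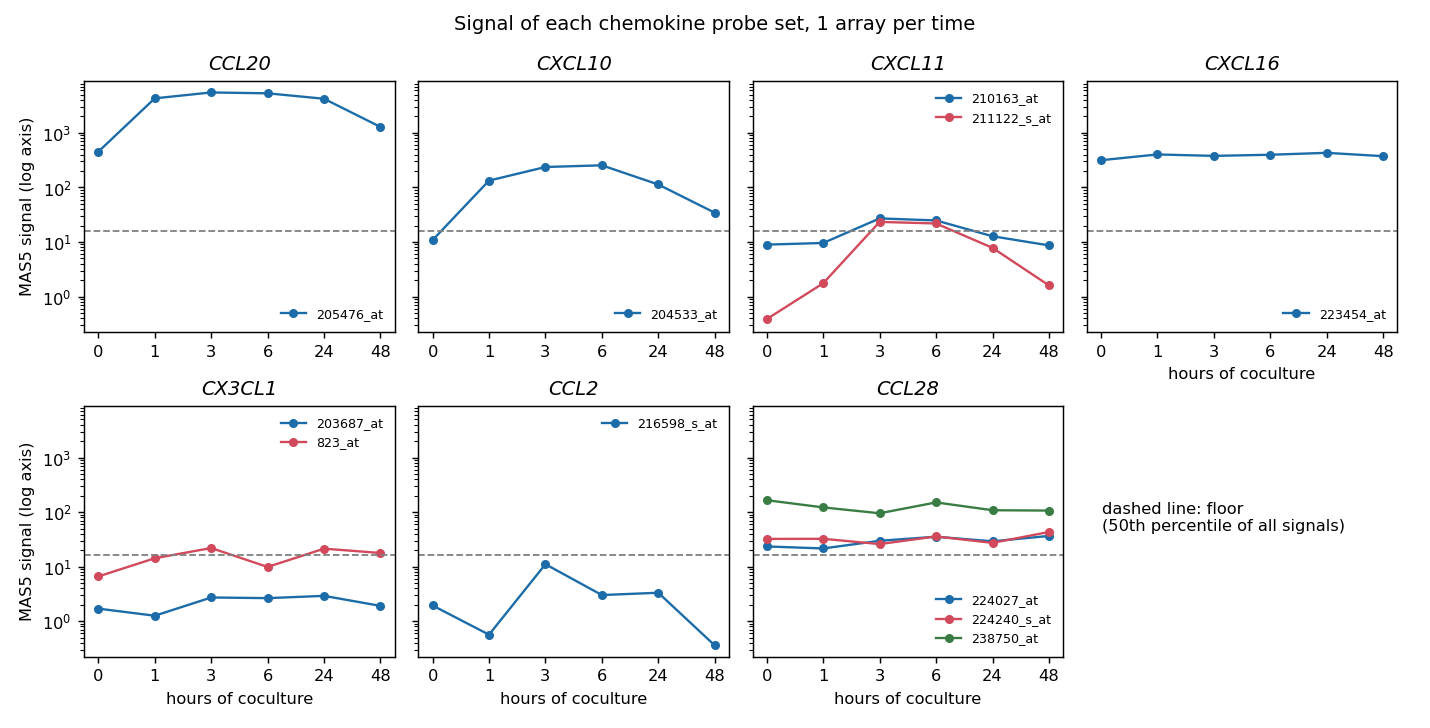
MAS5 signal (log axis) of each of the 11 probe sets of 7 chemokine genes against hours of coculture, with times evenly spaced and 1 array per point. The dashed line is the floor of 16.2. CCL20 and CXCL10 climb by 1 h and are lower again at 48 h, CXCL11 is above the floor at 3 and 6 h, CXCL16 and CCL28 stay within a narrow range, and CCL2 stays under the floor.

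The CCL20 signal was 453 before coculture and then 4303, 5520, 5321, 4229 and 1286 at 1, 3, 6, 24 and 48 h. Every coculture array was above the 0 h array, the first 4 lay close together, and only the last stood apart from them. The folds over 0 h were 9.50, 12.2, 11.7, 9.33 and 2.84. From 24 h to 48 h it fell 3.29-fold. Among genes above the floor on both arrays, its log2 ratio to 0 h held rank 5 of 11368 after 1 h of coculture, rank 2 of 11338 after 3 h, rank 4 of 11227 after 6 h and rank 2 of 11288 after 24 h. By 48 h it held rank 116 of 11292. In place of a replicate error, the spread between probe sets of the same gene gives a measure of noise: at the signal level of CCL20, log2 ratios of such probe sets had a robust SD of 0.18 to 0.24 at the first 4 coculture times and 0.43 at 48 h. The log2 ratio of CCL20 was 17.9 times this spread at 1 h and 3.49 times at 48 h. That spread leaves out differences between cultures, which 1 array a time cannot show.

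The CXCL10 signal was below the floor before coculture (10.8) and then 133, 237, 255, 113 and 34.4 at 1, 3, 6, 24 and 48 h. All 5 coculture arrays were above the floor and above 0 h, with the highest values at 3 and 6 h. Its folds over 0 h were at least 8.23, 14.6, 15.7, 6.98 and 2.12 in the same order. Between neighbouring times it fell 2.25-fold from 6 to 24 h and 3.29-fold from 24 to 48 h. The difference at 48 h is close to the limit of the call and was lost with a higher floor (log2 ratio 0.00 at the 65th percentile) and with the floor added to each signal as a pseudocount (0.90).

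CXCL11, the other CXCR3 ligand of the group, was above the floor at 3 and 6 h only, in both of its probe sets. Probe set 210163_at read 8.96, 9.59, 27.1, 24.8, 12.7 and 8.66 in time order, and 211122_s_at read 0.386, 1.75, 23.4, 21.8, 7.81 and 1.60. Both were thus highest at 3 h and next highest at 6 h, the times at which CXCL10 was highest too. The log2 ratio of CXCL11 to 0 h was at least 0.74 at 3 h and 0.61 at 6 h, short of 2-fold because the 0 h signal counts as the floor. With the floor at the 30th percentile of signals (6.38) these values were 1.59 and 1.47, past 2-fold. In RefSeq, CXCL10 and CXCL11 follow each other in order of gene starts on chromosome 4, with CXCL9, also a CXCR3 ligand, nearby. CXCL9 stayed under the floor on each of the 6 arrays, with signals of 1.97 to 14.9.

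The membrane-anchored chemokines gave no call. CXCL16, the CXCR6 ligand, had signals of 316, 403, 379, 398, 431 and 374 in time order, so that 0 h was the lowest array. Its log2 ratios of 0.35, 0.26, 0.33, 0.45 and 0.25 were 0.53 to 1.33 times the spread between probe sets at that signal (0.26 to 0.47) and did not stand clear of it. Of CX3CL1, the fractalkine gene, 1 probe set (203687_at) read 1.26 to 2.91 and never reached the floor. The other (823_at) read 6.61, 14.2, 21.9, 9.87, 21.4 and 17.8, just above the floor at 3, 24 and 48 h. Its largest log2 ratio was 0.43, at 3 h, or 1.73 with the lower floor, where it also passed 2-fold at 1, 24 and 48 h but not at 6 h. The single probe set of CCL2, the monocyte attractant, read 0.360 to 11.1, with its highest signal at 3 h.

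CCL28 was above the floor on all arrays in each of 3 probe sets, and these did not move together. The brightest, 238750_at, read 165, 122, 95.1, 150.4, 108 and 107 in time order and was highest at 0 h. Probe set 224027_at ran from 21.5 at 1 h to 36.5 at 48 h, and 224240_s_at from 25.9 at 3 h to 43.2 at 48 h. At 48 h their log2 ratios to 0 h were -0.63, 0.64 and 0.42 in that order, so the direction depends on the probe set. None reached 2-fold, and the largest difference, -0.80 for 238750_at at 3 h, was -1.79 times the spread between probe sets at that signal (0.44).

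Probe set 210390_s_at, assigned to both CCL15 and CCL15-CCL14 and therefore counted for neither, read 339 at 0 h and then 219, 191, 143, 134 and 132. It was lower at each later time than at the one before, and at 48 h it was 2.58-fold below 0 h. Which of the transcripts this signal stems from cannot be told from the array.

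**Figure D2:**
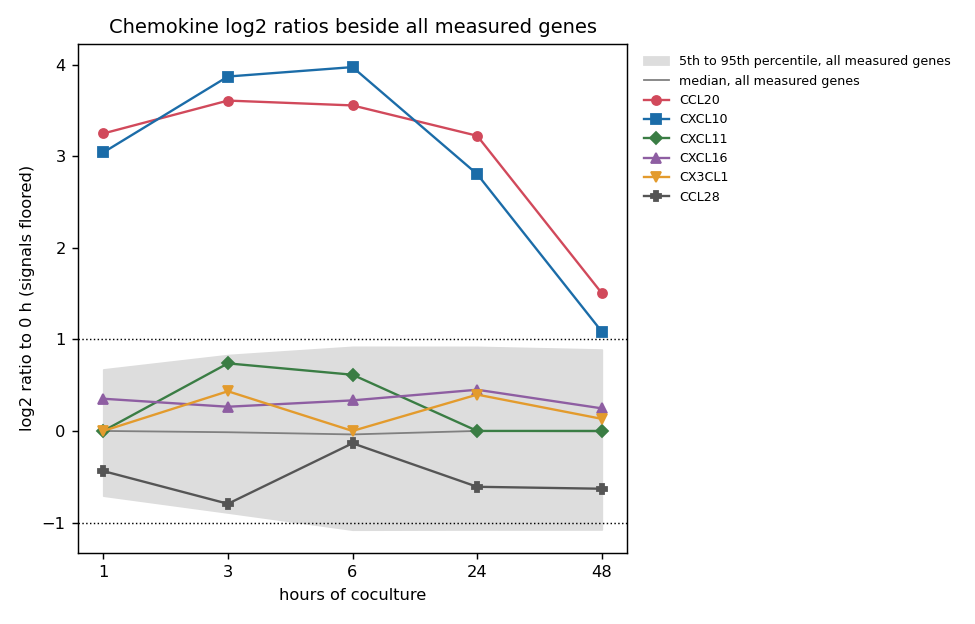
Log2 ratio to 0 h of the 6 measured chemokine genes (lines, 1 probe set each, signals floored at 16.2) against hours of coculture, with times evenly spaced. The grey band spans the 5th to 95th percentile of all 14760 measured genes, and dotted lines mark 2-fold. CCL20 and CXCL10 lie above the band at each time, and the other 4 genes lie within it.

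The step from 0 to 1 h, given above, held the largest changes of CCL20 and CXCL10. After it, none of the 6 measured genes changed 2-fold from 1 to 3 h, when 1.34% of measured genes were higher and 1.31% lower, or from 3 to 6 h, when 1.02% were higher and 1.36% lower. From 6 to 24 h only CXCL10 was lower, against 2.42% of measured genes lower and 2.11% higher. From 24 to 48 h CCL20 and CXCL10 were both lower, against 1.37% lower and 0.982% higher. With the 1.5-fold rule, 2 of the 6 measured genes passed from 1 to 3 h, CXCL10 and CXCL11, both upwards. The share of all measured genes that passed this rule is not given here.

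The decline from the peak differed in extent between CCL20, CXCL10 and the neutrophil-attracting CXC chemokines, measured here as the share of the highest signal of each gene. At 24 h CCL20 retained 76.6% of its 3 h signal and CXCL10 44.5% of its 6 h signal. CXCL1 was then at 15.5%, CXCL8 at 16.9%, CXCL2 at 26.6% and CXCL3 at 42.0% of their own peaks. At 48 h CCL20 was at 23.3% and CXCL10 at 13.5%, and the other 4 genes at 2.34% to 15.2%. CXCL1 was highest at 1 h, while CCL20 and CXCL2 were highest at 3 h and CXCL10, CXCL3 and CXCL8 at 6 h. CXCL1, CXCL2 and CXCL3 are close paralogs whose probe sets may share signal. The rises before that decline were larger for some of the neutrophil-attracting genes. CXCL1 was 41.6-fold over 0 h at 1 h, and CXCL8 was at least 94.9-fold over it at 6 h and 16.1-fold at 24 h in its brightest probe set, while its other probe set stayed under 2-fold on floored signals. Of 5 measured genes of that list, 4 passed 2-fold upwards at each of the first 3 coculture times. At 24 h 3 of them did so, and at 48 h CXCL8 alone. The shares of all measured genes higher at the 5 coculture times were 1.90%, 3.10%, 4.21%, 3.92% and 3.82%. With 1 array a time, none of these differences was tested. For comparison, of the 280 genes higher at 1 h, 117 were also higher at 24 h and 92 at 48 h, and 44 genes in all were higher at each of the 5 coculture times, CCL20, CXCL10 and CXCL8 among them.

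**Figure D3:**
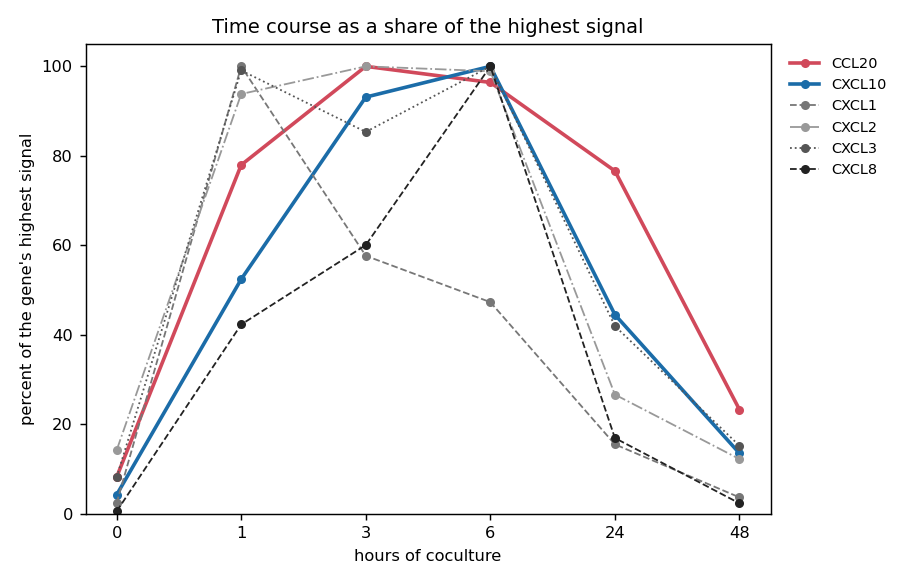
Signal as a percentage of the highest signal of the same gene, against hours of coculture (times evenly spaced, 1 array per point), for CCL20 and CXCL10 (solid lines) and 4 neutrophil-attracting CXC chemokines (broken lines). At 24 h CCL20 is at 76.6% and CXCL10 at 44.5%, and the other 4 genes are between 15.5% and 42.0%.

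Genes whose time course was most like that of CCL20 or CXCL10 were found by Pearson correlation of log2 signals over the 6 arrays, among 4057 genes that varied at least 2-fold and were above the floor on at least 4 arrays. The points are the same 6 arrays for every gene, and 85 genes exceeded 0.9 for CCL20 and 134 for CXCL10, so the measure is a description. Each gene was represented by its probe set with the highest mean, so the likeness holds for that probe set. For CCL20 the nearest were RELB, an NF-kB subunit (r = 0.994), TNFRSF12A, the receptor of the cytokine TWEAK (0.990), and PHLDA2 (0.980). RELB read 17.1 at 0 h and 99.7, 129, 122, 90.6 and 46.5 afterwards, and PHLDA2 went from 492 at 0 h to 4433 at 3 h and 1487 at 48 h. For CXCL10 the nearest were ETV3, a transcriptional repressor of the ETS family (r = 0.996), RAB35, a GTPase of endosomal transport (0.990), and ALAS1, the first enzyme of haem synthesis (0.989). ETV3 read 384 at 0 h, 1018 at 6 h and 475 at 48 h, a smaller rise than that of CXCL10. CCL20 and CXCL10 correlated with each other at r = 0.98.

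Genes of NF-kB signalling, a transcription factor system that drives many chemokine genes, were often higher at the same times. Of 17 subunits and regulators listed, 16 were measured, and of these 8, 9, 10, 7 and 1 passed 2-fold upwards over the 5 coculture times, and no member passed it downwards, against 1.90%, 3.10%, 4.21%, 3.92% and 3.82% of all measured genes higher and 1.46% to 6.44% lower. The list's median log2 ratios were 0.78, 1.18, 1.40, 0.73 and 0.45. TNFAIP3, an inhibitor of the pathway, read 190.1 before coculture and 1802, 1778, 1819, 889.9 and 251 afterwards. NFKBIA, the inhibitor that retains NF-kB in the cytoplasm, read 682 at 0 h and 3203, 3230, 3103, 1457 and 505 afterwards, so that 48 h lay below 0 h, while a dimmer probe set of it read 20.1 to 42.7. NFKB2, the precursor of the subunit p52, rose from 56.4 at 0 h to 377 at 6 h. At 24 h the log2 ratio was 3.22 for CCL20 and 2.80 for CXCL10, and 2.40 for RELB, 2.23 for TNFAIP3, 1.69 for NFKB2 and 1.09 for NFKBIA.

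Genes of interferon signalling and interferon-stimulated genes, of which CXCL10 and CXCL11 are classical examples, gave calls in both directions, with the most at 6 h. Of 38 genes listed, 29 were measured, of which 2, 2, 5, 1 and 1 were higher and 0, 0, 2, 2 and 1 lower at 1, 3, 6, 24 and 48 h. The shares of all measured genes were 1.90%, 3.10%, 4.21%, 3.92% and 3.82% higher and 1.46%, 3.52%, 6.44%, 6.12% and 6.11% lower. The median log2 ratios of the list were -0.01, 0.08, 0.20, 0.06 and 0.10, where those of all measured genes lay between -0.04 and 0.00. Of the interferon genes with a probe set of their own, IFNB1, IFNG and IFNL2 were under the floor on every array, and IFNL1 exceeded it at 48 h alone, with a signal of 23.6. IRF1, a transcription factor that binds ISRE-type sites, read 58.5 at 0 h, 190.2 at 1 h and 85.6 at 3 h. It was 3.25-fold higher at 1 h only, and its second probe set had a log2 ratio of 0.67 there. IFNGR2, a chain of the receptor for interferon gamma, rose from 353 at 0 h to 970.0 at 6 h and was back at 368 at 24 h. IFNGR1, the other chain, differed by a log2 ratio of 1.14 at 6 h in its brightest probe set, and by 2.02 and 2.15 in the others. ISG20, an exonuclease, was 2.97-fold higher at 6 h, while its other probe set had a log2 ratio of 0.78. IFIT1, an RNA-binding antiviral protein, went the other way, from 244 at 0 h to 44.1 at 24 h, a log2 ratio of -2.46.

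Receptors for the group were low in these arrays. Of 8 receptor genes listed, 7 had a probe set of their own. Among these, CXCR3, CCR2 and CX3CR1 were under the floor on each array, and CCR6, CXCR6, CCR1 and CCR10 exceeded it on at least 1. None of these 4 was higher at any time, where 1.90% to 4.21% of all measured genes were. CCR10, the receptor of CCL28, read 44.2, 44.6, 18.7 and 34.5 over the first 4 arrays. It passed 2-fold downwards at 3 h alone, when 3.52% of all measured genes were lower. ACKR3, an atypical receptor that takes up CXCL11 and CXCL12 without G protein signalling, read 65.6 at 0 h and 311, 134, 161, 92.0 and 66.9 afterwards. It was 4.75-fold higher at 1 h and past 2-fold at 3 and 6 h too. Of 3 atypical receptors measured, ACKR3 alone was higher at these times, against 1.90%, 3.10% and 4.21% of all measured genes. A second probe set of ACKR3 stood at a log2 ratio of 1.2 at 1 h, and the remaining one never reached the floor.

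Among 8 genes that process or hold chemokines, 1, 1, 3, 2 and 2 passed 2-fold upwards over the 5 coculture times and none downwards, where 1.90% to 4.21% of all measured genes were higher and 1.46% to 6.44% lower. SDC4, a heparan sulfate proteoglycan of the kind that binds chemokines at the cell surface, read 1531 at 0 h, 3384 at 1 h and 4006 at 6 h. MMP9, a protease that can cleave several chemokines, was 5.51-fold higher at 6 h, with a signal of 119. CTSS, a lysosomal protease, was 2.14-fold higher at 24 h. ADAM10, the main constitutive sheddase of CXCL16 and CX3CL1, stayed within 1749 to 1877 on all arrays in its brightest probe set. ADAM17, the inducible one, gave log2 ratios of 1.07 in 1 probe set and -0.25 in another at 48 h, and was under the floor in the remaining one. DPP4, the brush border peptidase that trims the ends of CXCL10 and CXCL11, read 971 to 1285 and gave no call. Of 24 further chemokine genes with a probe set of their own, 8 were above the floor on any array, none was higher at any time, and XCL1 alone was lower, with folds below 0 h of 2.82, 2.29 and 2.14 at 3, 6 and 24 h.

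**Figure D4:**
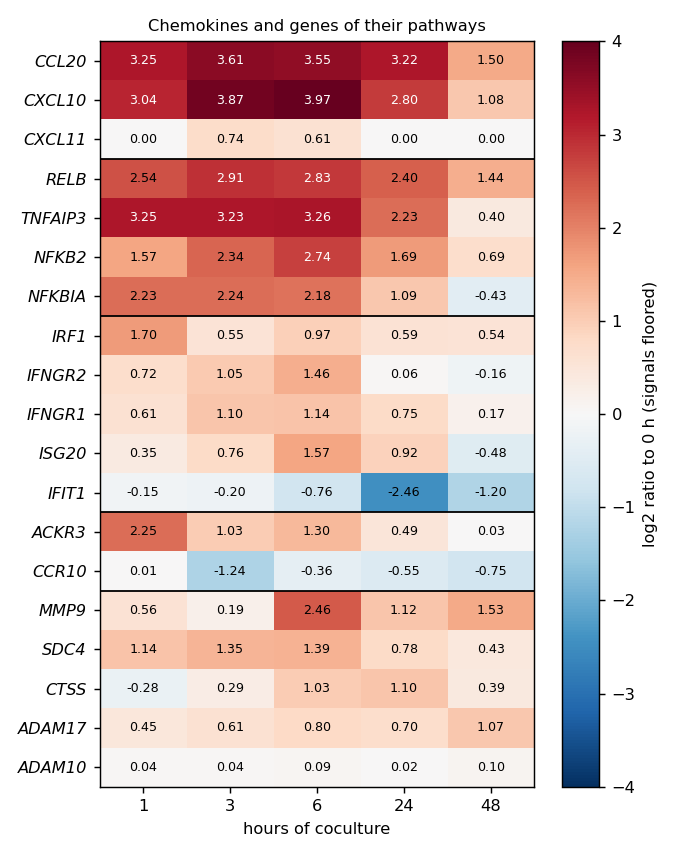
Log2 ratio to 0 h (colour and printed value, signals floored) of CCL20, CXCL10 and CXCL11 and of 16 genes of NF-kB signalling, interferon signalling, chemokine receptors and chemokine processing, in 5 blocks separated by lines, against hours of coculture. CCL20, CXCL10, RELB and TNFAIP3 reach 2.91 or more, while IFIT1 falls to -2.46 at 24 h.

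Each array had 12017 to 12296 genes above the floor. Of 11 epithelial marker genes with a probe set of their own, 10 or 11 were above the floor on each array, among them CDH1, EPCAM and VIL1, with a summed signal of 19921 to 24957. Within that list KRT20, a keratin of differentiated enterocytes, was 2.63-, 3.26- and 4.04-fold higher at 3, 6 and 24 h. LGALS4, a galectin, was 2.25-fold lower at 48 h. CDX2, an intestinal transcription factor, was 3.51- and 2.42-fold lower at 3 and 6 h in its brighter probe set. The dimmer one had log2 ratios of -1.06, -0.63 and -1.12 at 3, 6 and 24 h, so the times past 2-fold depend on the probe set. Of 11 macrophage markers with a probe set of their own, 5 to 8 were above the floor on each array. Their summed signal was 721 at 0 h, before the coculture with THP-1 cells began, and 302 to 548 during it. In the probe set used for each gene, CD14, ITGAM, LAPTM5, AIF1 and MSR1 were above the floor on all 6 arrays. PTPRC and SPI1 were under it on every array. CD14 read 41.9 to 59.8, and LAPTM5 read 48.8 to 141, highest at 6 h. AIF1, the brightest of the list at 0 h, went from 360.0 there to 43.0 at 48 h. MSR1 was lower at 24 and 48 h and FCER1G at 1, 3 and 6 h. The other probe sets of MSR1 and FCER1G were under the floor on every array. None of the list was 2-fold higher than at 0 h at any time, although TYROBP reached 25.5 at 48 h from under the floor. The 3′ control probe set divided by the 5′ control is a measure of RNA integrity and labelling. For ACTB it was 51.2 at 0 h and 18.0 to 37.0 during coculture. For GAPDH it was 4.69 at 0 h, 3.54 to 4.29 at 1, 3, 6 and 48 h, and 4.72 at 24 h. The part of the marker genes and of these ratios in the rises was not tested. Fewer cells of a type and less RNA per cell cannot be told apart in such bulk samples.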

How the data were processed

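Gene expression was measured on 6 arrays, 1 per time. The authors deposited linear intensities, 1 MAS5 signal per probe set and array, MAS5 being named in the submitters' processing notes. Its version and scaling target were not given in the sources used here. The 2% trimmed mean was 93.8 on each array, so no scaling was added. MAS5 subtracts mismatch signal, which makes low signals noisy.

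Of 54675 probe sets, 41097 carried 1 symbol, 1801 several and 11777 none, and 41043 were found in a RefSeq table of GRCh38.p14 by gene identifier. Signals under 16.2 were set to that floor, log2 was taken, and the probe set with the highest mean represented a gene. Genes were called at 2-fold, with no test. The size rule was tested on simulated data, with changes placed only in genes well above the floor. The simulated noise was smaller than the spread between probe sets at low signals. The simulation therefore does not show how the rule performs for genes that start under the floor, such as CXCL10, CXCL11 and CX3CL1. The 10 alternatives changed normalization, floor, pseudocount, probe set choice, fold and baseline. No column was unused.

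The members and gene lists were chosen with earlier results of these data known. Named genes are the members, up to 4 genes a list with the largest calls, 4 regulators always, and the 3 genes most like a member. IFNGR1, ADAM10, DPP4, CDH1, EPCAM, VIL1, CD14, ITGAM, LAPTM5, TYROBP, IFNL1 and the genes named as under the floor were added after their values were seen. Python 3.11.15, numpy 2.4.6 and pandas 2.3.3 were used.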

Additional observations from a re-analysis of the deposited data

How the results depend on the processing

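No paired analysis was possible because each time has a single array with no replicate number to pair, and for the same reason no replicate could be left out. CCL20 and CXCL10 were higher at 1, 3, 6 and 24 h under each of the 9 alternatives that kept the 0 h array. CXCL11 joined them at 3 and 6 h with the floor at the 30th percentile and with the 1.5-fold rule, and CX3CL1 at 1, 3, 24 and 48 h with that floor.

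With the floor at the 30th percentile, 4 genes were higher at 3 h, and 1, 1 and 2 changed from 1 to 3 h, from 3 to 6 h and from 6 to 24 h. At 48 h 1 of 4 measured genes was higher with the floor at the 65th percentile, and 1 of 6 with the pseudocount. With the 3-fold rule 0 of 6 were higher at that time, and 0 changed from 6 to 24 h. With the 1.5-fold rule 1 of 6 measured genes was lower at 3, 24 and 48 h, which was CCL28. Under that rule 2, 1 and 2 changed from 1 to 3 h, from 3 to 6 h and from 6 to 24 h. With the 1 h array as the baseline 0 genes were higher at 3, 6, 24 and 48 h and 2 were lower at 48 h. The log2 ratio of CCL20 was then -0.025 at 24 h and -1.74 at 48 h, and that of CXCL10 -0.24 and -1.96, since both had already risen by 1 h. When probe sets with the endings _x_at and _s_at were left out, CCL2 had no value. Low signal limits CXCL11 and CX3CL1, whose folds are bounds where a coculture signal exceeds the floor, and CCL2, which has no fold.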
